A study of Homo sapiens with 18 samples.

Results

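The comparison described here sets cells transfected with complete Csy4 against cells transfected with Csy4 in separate parts and given no trigger. Csy4 is a bacterial endoribonuclease that cuts RNA beside a short hairpin it recognises. Its members are 6 of the 18 libraries of the series, chosen by their sample labels alone: 3 libraries of HEK-293T cells transfected with full-length Csy4 (labelled wtCsy4) and 3 of HEK-293T cells transfected with split Csy4 and given no trigger (labelled SplitCsy4_DMSO). HEK-293T is a line derived from human embryonic kidney. It carries the large T antigen of simian virus SV40, which binds p53. For both groups the labels give 70000 cells, a transfection, and DMSO, the solvent, labelled 0.5 µM, added 6 hours after it. Untransfected cells in DMSO (3 libraries) and split Csy4 with the trigger grazoprevir (3 libraries, called triggered) serve below as levels to read the members against. Messenger RNA with a poly(A) tail was sequenced and counted per gene.

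Because both groups were transfected and received DMSO, this contrast leaves out the step from untransfected to transfected cells. The form of the enzyme, the constructs that encode it and the activity of the enzyme still differ together and cannot be told apart. The promoters, plasmid amounts and Csy4 reads were not analysed here, so neither the amount of Csy4 nor its cutting was measured. Nothing in the labels states that replicates were separate cultures, and p-values then measure only the spread between these libraries, which may be technical.

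Library totals were 12768305, 14308717 and 15378381 counts for full-length Csy4 and 14428839, 13730138 and 16099315 counts for untriggered split Csy4. The share of counts on the top 10 genes was 3.4 to 3.46% in the first group and 3.96 to 4.01% in the second. Of the lineage markers reported for HEK-293 cells, 9 of 10 were tested and *NEFM* was at 0. Their summed level was 193 to 212 CPM (counts scaled to a common library total) with full-length and 201 to 205 CPM with split Csy4. *NEFL* was called higher (2.35 to 2.77 against 0.661 to 1.63 CPM) and *KRT18* lower (30.4 to 32.6 against 34.3 to 37.7 CPM). These calls were lost under 2 and 7 of 15 alternative fits. Blood cell markers summed to 4.57 to 5.85 CPM with full-length and 3.01 to 5.44 CPM with split Csy4, with *CD3E* and *HBB* at 0. Epithelial carcinoma line markers summed to 13.2 to 14.6 CPM against 15.5 to 16.6 CPM, with *KRT5* and *KRT14* at 0. Of 5 tested, only *CDH1* was called, and it was lower, at 8.06 to 9.6 against 11.1 to 12 CPM. That call was lost under 5 of 15 alternative fits. Fibroblast markers summed to 38.6 to 47.6 CPM with full-length and 49.3 to 54.6 CPM with split Csy4. Of 4 fibroblast markers tested, only *COL3A1*, a fibrillar collagen, was called, at a log2 fold change of -0.48 ± 0.083 (standard error, SE), while *COL1A1*, another collagen, was at 0.08 and not called. The sums of these last 2 marker lists did not overlap between the groups, and their part in the results below was not tested. In bulk RNA, fewer cells of a type and less RNA per cell cannot be told apart.

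Several systems named below are linked to damage and stress in mammalian cells. The transcription factor p53 switches on genes for cell cycle arrest, DNA repair and apoptosis, and *MDM2*, one of its targets, encodes the ligase that marks p53 for destruction. Heat shock factor responds to unfolded protein by binding repeated GAA blocks upstream of chaperone genes. Sterol regulatory element-binding proteins (SREBPs) leave the endoplasmic reticulum when sterols run low and switch on cholesterol and fatty acid synthesis, and *INSIG1* holds them back.

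Of 17966 genes with enough counts to be tested, 5024 differed between the groups at an edgeR adjusted p below 0.05, which is 28% of those tested and is what "called" means throughout. With full-length Csy4, 2345 genes (13.1%) were higher and 2679 (14.9%) were lower. Most differences were small: 81.7% of these 5024 genes stayed under 1.5-fold. The larger ones were mostly rises, since 362 genes rose and 54 fell at least 2-fold. In 7054 genes (39.3%) the libraries did not overlap between the groups: full-length Csy4 was above split Csy4 throughout in 19% of genes and below it in 20.2%. The share of calls that were higher was 46.7% with trimmed-mean (TMM) scaling and 67.8% when libraries were scaled by their totals alone, which took the median log2 fold change of all genes from -0.003 to 0.066. Directions near 0 therefore depend on the scaling.

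Rises and falls lay at different levels of expression. Among 5492 genes whose higher group mean was between 1 and 10 CPM, 263 rose and 39 fell at least 2-fold. Among 2624 genes at 100 CPM or more, 424 were called higher and 1046 lower, and only 7 rose and 3 fell at least 2-fold. Genes called lower with full-length Csy4 held 44.5 to 44.8% of the counts in the split Csy4 libraries and 39.6 to 40% in the full-length libraries. Of the 2608 tested long noncoding RNA genes, 225 were higher (8.63%) and 47 lower (1.8%), while of 13470 protein-coding genes 2025 were higher (15%) and 2542 lower (18.9%). Calls in either direction were thus a smaller share of the long noncoding RNA genes. The 2 classes were not matched for level, and 2.76% of genes under 1 CPM were called against 56% at 100 CPM or more. Across 15852 genes with a known transcript, log2 fold changes had a Spearman correlation of -0.016 with transcript length and 0.042 with GC content, a description over genes that share the same libraries. The shares called were uneven all the same: over 5 length classes of equal size, 5.74% of the shortest were higher against 18.4% of the next to longest, and 24.2% of the longest were lower. Over 5 such classes of GC content the share lower ran from 9.93 to 21.5%.

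**Figure D1:**
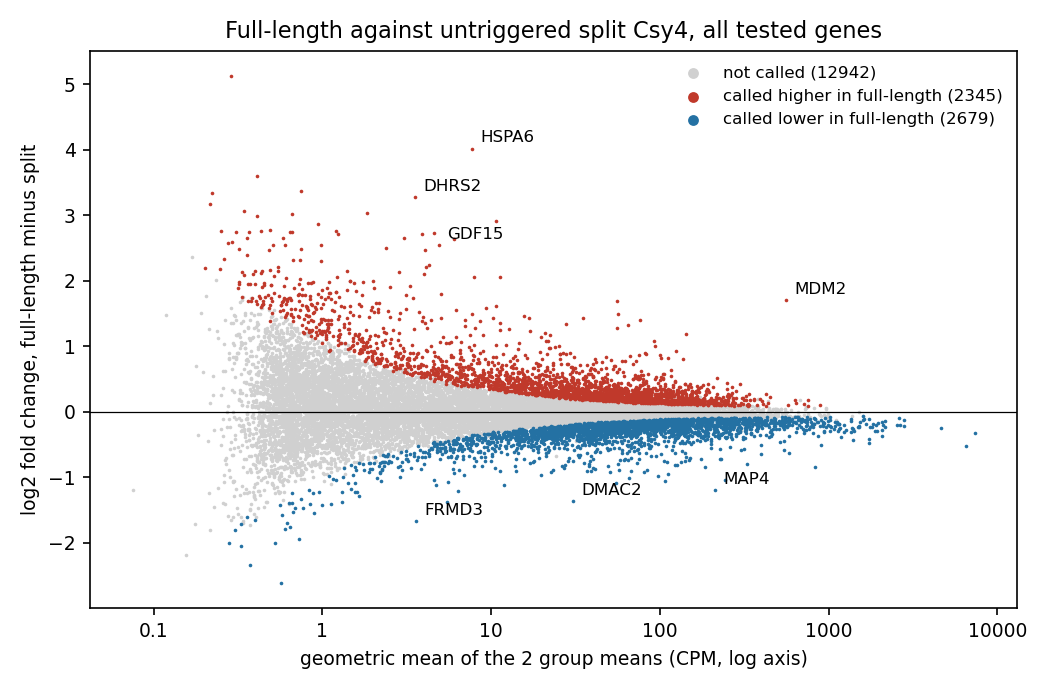
Log2 fold change of full-length minus untriggered split Csy4 (vertical axis) against the geometric mean of the group means in CPM (horizontal log axis) for 17966 tested genes. Red points are the 2345 genes called higher with full-length Csy4 and blue points the 2679 called lower. Points above a log2 fold change of 1 lie mostly at low levels, and the genes above 1000 CPM lie mostly just under 0.

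Among the genes with the largest differences, *HSPA6*, a stress-inducible chaperone of the HSP70 family, stood at 33.3, 28.3 and 32.8 CPM with full-length Csy4 and at 1.96, 1.4 and 2.39 CPM with split Csy4. All full-length libraries lay far above all split libraries, with 1386 counts against 85, and the log2 fold change was 4.02 ± 0.2 (adjusted p = 1.38e-22). Untransfected cells averaged 0.123 CPM and triggered split Csy4 cells 0.472 CPM. *HSPA6* lies on chromosome 1 from 161524540 to 161526894 (GRCh38) beside a near-identical pseudogene, *HSPA7*, with which it may share reads. *DHRS2*, a short-chain dehydrogenase, stood at 11, 9.41 and 12.9 CPM with full-length and 1.26, 0.955 and 1.19 CPM with split Csy4 (log2 fold change 3.28 ± 0.24). Untransfected cells, at 1.27 CPM, were close to the split Csy4 level. *NHLH2*, a neuronal transcription factor, stood at 10.8, 11.7 and 13.1 CPM against 1.47, 2.06 and 1.82 CPM (2.73 ± 0.23). *GDF15*, a stress-induced cytokine, stood at 12.1, 10 and 13.4 CPM against 1.61, 2.06 and 2.39 CPM (2.54 ± 0.22). Split Csy4 cells were themselves above the 0.228 CPM of untransfected cells for *GDF15*, on 89 counts in all.

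The other large rises were also at low levels. *CYP4F3*, a cytochrome that oxidises leukotrienes, averaged 10.1 ± 0.61 CPM with full-length and 1.51 ± 0.6 CPM with split Csy4 (mean ± SD, n = 3), and triggered split Csy4 cells lay between them at 4.8 CPM. *ARC*, an early gene of active neurons, averaged 9.24 ± 1.1 against 1.97 ± 0.7 CPM, a log2 fold change of 2.24 ± 0.23. *INPP5D*, an inositol phosphatase known from blood cells, averaged 23 ± 1.9 against 5.51 ± 0.55 CPM (2.06 ± 0.13). *IP6K3*, an inositol hexakisphosphate kinase, *NECTIN4*, an adhesion molecule, *MUC19*, a gel-forming mucin, and *GRHL3*, an epithelial transcription factor, had log2 fold changes from 2.11 ± 0.23 to 3.03 ± 0.37. The rule that named these genes required libraries without overlap.

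**Figure D2:**
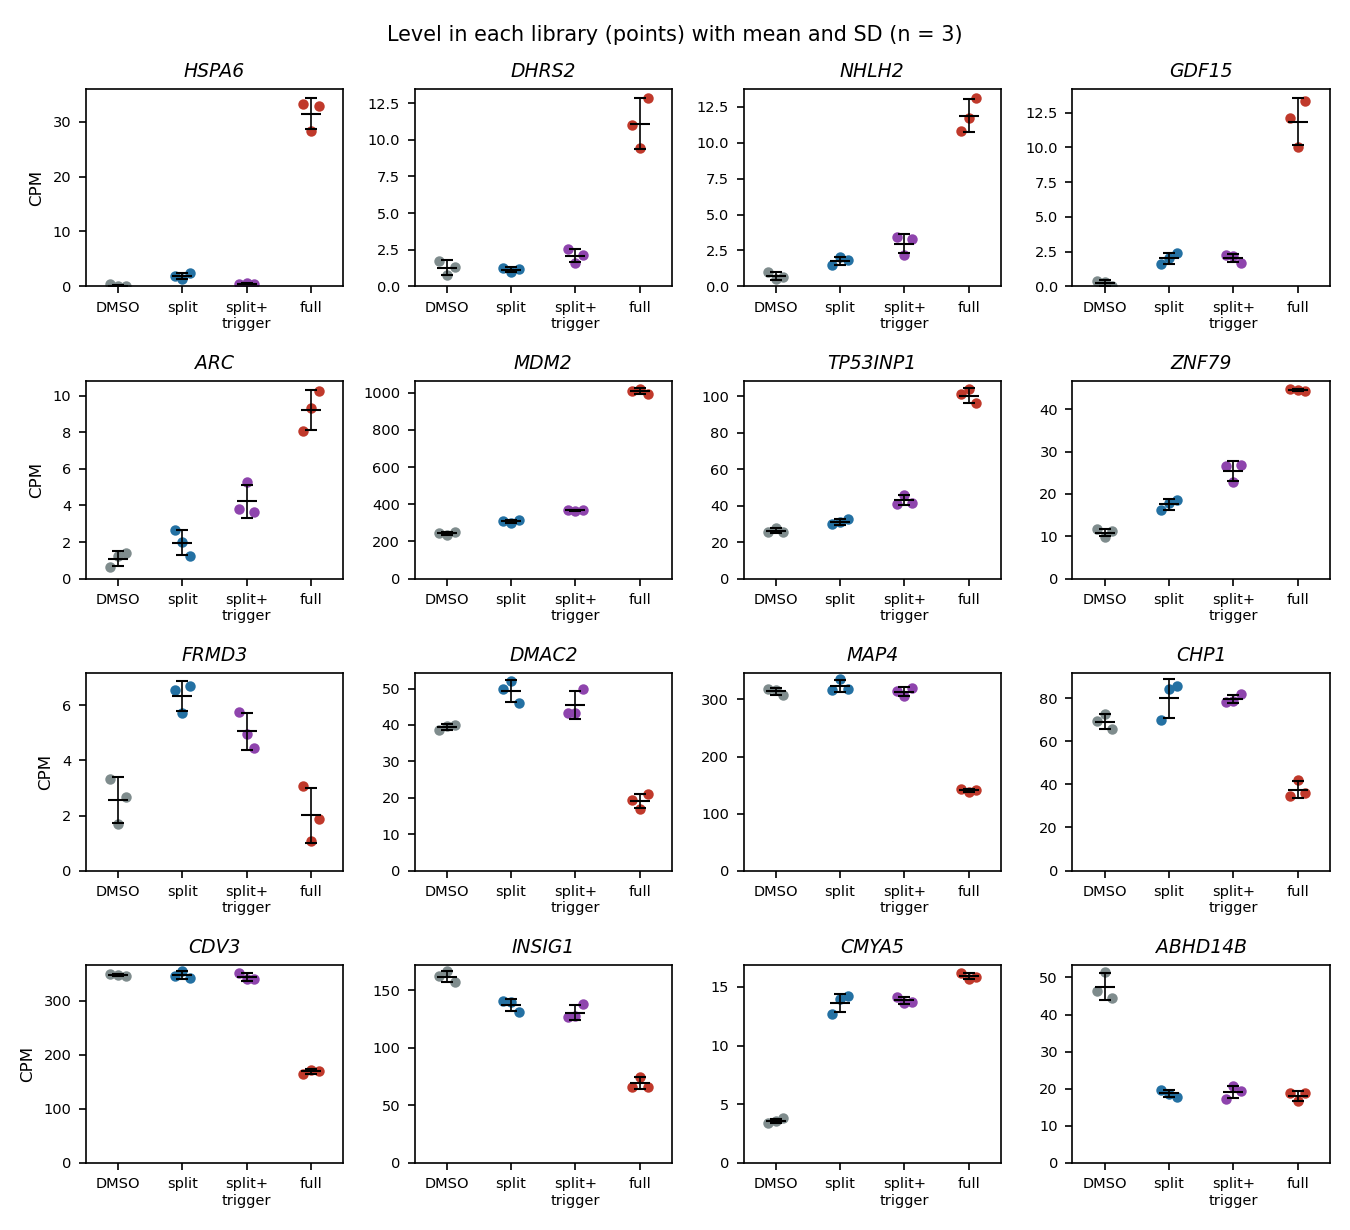
Level in CPM (vertical axis, from 0) of 16 genes in each library (points) with mean and SD (n = 3) for untransfected DMSO, untriggered split, triggered split and full-length Csy4 cells. *HSPA6*, *DHRS2* and *MDM2* are high in the full-length group alone among the 4 groups shown, *MAP4* and *CDV3* are low there, and *CMYA5* is high and *ABHD14B* low in all 3 transfected groups.

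Genes that p53 switches on were higher with full-length Csy4 in most cases. In the list for cell cycle arrest, feedback and repair, 22 of 27 tested genes rose and 1 fell, at a median log2 fold change of 1.01 against -0.003 over all tested genes. *MDM2* stood at 1008, 1023 and 992 CPM with full-length and 311, 298 and 316 CPM with split Csy4. The groups were far apart, with a log2 fold change of 1.71 ± 0.035 (adjusted p = 2.65e-53). Triggered split Csy4 cells averaged 367 CPM and untransfected cells 242 CPM. *TP53INP1*, a stress protein induced by p53, averaged 100 ± 4 against 31.2 ± 1.6 CPM (1.69 ± 0.064). *MDM2* lies on chromosome 12 from 68808172 to 68850686.

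Arrest and repair genes moved alongside. *CDKN1A*, which encodes the cell cycle inhibitor p21, stood at 86.1, 88.8 and 84.8 CPM with full-length and 33.9, 36.7 and 36.5 CPM with split Csy4 (1.28 ± 0.061). Split Csy4 cells were close to untransfected cells, at 37.2 CPM. *DDB2*, a sensor of damaged DNA, rose by 1.5 ± 0.061 on the log2 scale, *GADD45A*, a growth arrest protein, by 1.39 ± 0.063, and *BTG2*, an antiproliferative gene, by 1.33 ± 0.058. *FDXR*, the mitochondrial ferredoxin reductase, stood at 58.3, 57.3 and 57.1 CPM against 19.7, 21.4 and 22.9 CPM (1.43 ± 0.073), and its split Csy4 level lay below the 26.8 CPM of untransfected cells. *SESN1*, a sestrin that restrains mTOR signalling, was the 1 member that fell, by 0.29 ± 0.055. *CCNG1*, a cyclin induced by p53, was at -0.10 (95% interval -0.25 to 0.04) and was not called.

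The apoptosis list rose less. Of 16 tested genes 12 rose and 2 fell, at a median of 0.51. *AEN*, an apoptotic nuclease, averaged 214 ± 6 CPM with full-length and 94.4 ± 4.2 CPM with split Csy4 (1.18 ± 0.044). The direct effectors rose by smaller amounts: *FAS*, a death receptor, by 1.00 ± 0.087, *BBC3* (PUMA) by 0.84 ± 0.14, and *BAX*, which opens the mitochondrial membrane, by 0.50 ± 0.057. *PERP* and *STEAP3*, a junction protein and a metal reductase, fell by 0.24 and 0.25. *FAS* overlaps *ACTA2* on the other strand, and the strand setting of the counting is not given in the sources used here, so the reads of that pair are uncertain.

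Set against untransfected cells, the arrest and repair list had a median of 1.10 with full-length Csy4 and 0.16 with untriggered split Csy4, and the apoptosis list had 0.61 and 0.07. These values share the DMSO libraries. Gene by gene their difference is the contrast above, which need not hold for the medians. The counts of p53 targets that rose did not depend on scaling: 22 and 12 rose with library totals alone as well.

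**Figure D3:**
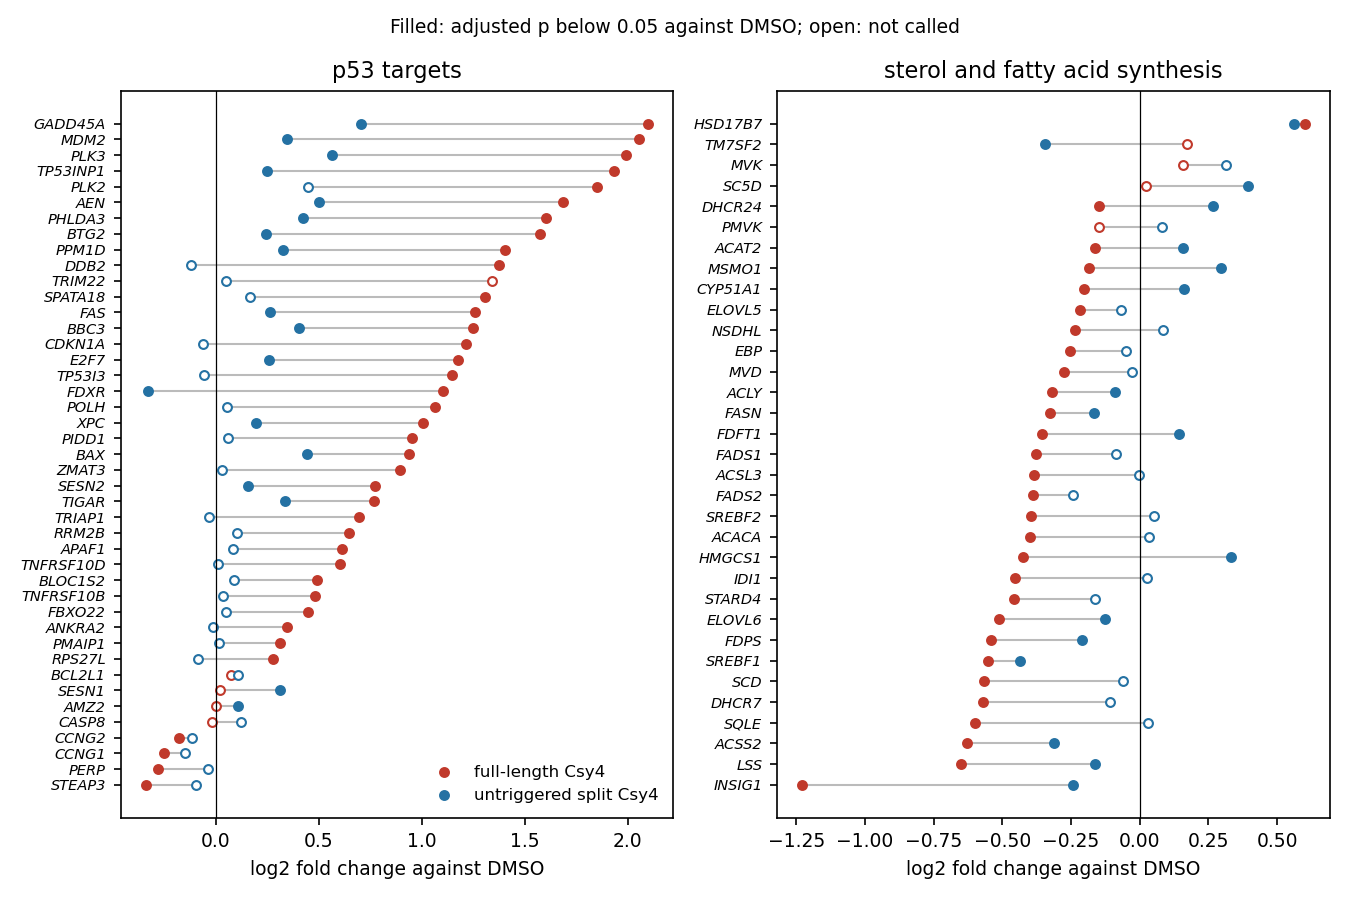
Log2 fold change against untransfected DMSO cells (horizontal axis) for tested p53 targets (left) and sterol or fatty acid synthesis genes (right), in full-length (red) and untriggered split Csy4 cells (blue). Filled points are called at an adjusted p below 0.05. For most p53 targets the red point lies to the right, as for *MDM2* and *CDKN1A*, and for most lipid genes to the left, as for *INSIG1* and *HMGCS1*.

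Heat shock chaperones moved both ways. Of 29 tested, 7 rose (24.1%) and 10 fell (34.5%), at a median of 0.00, where 13.1% of all tested genes rose and 14.9% fell. With library totals alone 11 rose and 4 fell. Beside *HSPA6*, the co-chaperone *DNAJB1* rose by 0.37 ± 0.04, from 181 to 234 CPM, and *HSPA4L*, an HSP110 relative, by 0.38. Abundant members were lower or were not called. *HSP90AA1*, the inducible HSP90, averaged 4283 ± 124 CPM with full-length and 5069 ± 103 CPM with split Csy4 (-0.24 ± 0.027). *HSPA8*, the constitutive HSC70, averaged 1522 and 1521 CPM, and the 95% interval of its log2 fold change was -0.05 to 0.06. *HSPA1B*, an HSP70 gene, fell by 0.38 ± 0.032, but it shares reads with the near-identical *HSPA1A*, so this value is uncertain. It averaged 759.5 CPM with full-length and 987.1 CPM with split Csy4, where untransfected cells had 723.9 CPM. With full-length Csy4, 14 of the 29 chaperones were called higher and 5 lower than in untransfected cells. With untriggered split Csy4 these counts were 15 higher and 1 lower. Over all tested genes, 22.9% were higher and 24% lower with full-length Csy4, and 14.8% and 14.1% with untriggered split Csy4.

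To set these values beside sequence, the 250 bases upstream of annotated starts were searched in RefSeq promoters (GRCh38.p14) for the block pattern of the heat shock element: GAA, any 2 bases, TTC, any 2 bases, GAA, on both strands. The pattern was present in 7 of 27 chaperone genes with a promoter entry and in 0.471% of the 12740 tested genes with one. Of those 7 genes 1 rose, 3 fell and 3 were not called. Of the 20 chaperone genes without the pattern, 6 rose and 6 fell. The windows of a gene that rose, 1 that was not called and 1 that fell are shown, with the matched bases in capitals.
HSPA6, chr1:161524446-161524498, plus strand: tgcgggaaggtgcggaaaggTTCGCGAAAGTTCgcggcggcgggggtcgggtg
CHORDC1, chr11:90223067-90223129, minus strand: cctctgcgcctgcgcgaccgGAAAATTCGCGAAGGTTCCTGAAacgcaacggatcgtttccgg
HSP90AA1, chr14:102087100-102087152, minus strand: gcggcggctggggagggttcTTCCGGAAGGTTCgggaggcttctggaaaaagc
*CHORDC1*, an HSP90 co-chaperone whose window holds 3 overlapping matches, was at 0.17 (95% interval 0.03 to 0.32, adjusted p = 0.0718) and not called. The same block pattern, with different bases between the blocks, stood upstream of a gene at 4.02 and of a gene at -0.24. *HSP90AA1* had 2 promoter windows, and 1 of them held the pattern. A match is a description of the letters and no measure of factor binding.

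Early-response genes rose in part. Of 12 AP-1 family genes 4 rose (33.3%) and none fell, at a median of 0.23. *ATF3*, a stress-induced repressor, stood at 96.8, 105 and 101 CPM with full-length and 56.5, 54.9 and 55.6 CPM with split Csy4 (0.86 ± 0.055), and *FOSL1*, a partner of Jun, rose by 0.98 ± 0.16. Triggered split Csy4 cells averaged 74.9 CPM for *ATF3*, between the other transfected groups. Among 21 EGR, IER and KLF genes 4 rose (19%) and 3 fell (14.3%), close to the 13.1% and 14.9% of all tested genes. In that list the growth factor gene *CCN2* was at -0.55 ± 0.12 and *MYC*, a growth regulator, at -0.36 ± 0.043. The list of phosphatases and feedback inhibitors that shut off MAP kinases had a median of 0.10. Of its 18 genes 6 rose (33.3%) and 2 fell (11.1%). *DUSP8* rose by 1.25 ± 0.13 and *DUSP14* by 0.84 ± 0.083.

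The integrated stress response, whose factor ATF4 induces amino acid synthesis genes and stress effectors, was read in separate lists. In the synthesis and transport list 15 of 23 fell (65.2%) and 2 rose (8.7%), at a median of -0.21. Of all tested genes 14.9% fell and 13.1% rose. *PHGDH*, the first enzyme of serine synthesis, fell by 0.36 ± 0.04, from 261 to 202 CPM, and *PSAT1*, the next enzyme, by 0.32. *SLC3A2*, the heavy chain of amino acid exchangers, rose by 0.30 ± 0.043. Among 16 effectors 5 rose (31.2%) and 6 fell (37.5%), at a median of 0.03. Besides *GDF15*, *PPP1R15A*, which restarts translation by dephosphorylating eIF2, rose by 0.65 ± 0.066 and *SESN2*, a sestrin that is also a p53 target, by 0.62 ± 0.057. *ATF4* itself fell by 0.14 ± 0.032. Endoplasmic reticulum chaperones were slightly lower: 6 of 21 genes of the unfolded protein response fell (28.6%) and 1 rose (4.76%), with *HSPA5* (BiP) at -0.18. With library totals alone 5 of those 21 rose and 6 fell. Compared with untransfected cells 7 of the 21 were higher and 4 lower with full-length, and 10 higher and 2 lower with untriggered split Csy4. The shares over all tested genes were 22.9% and 24% with full-length, and 14.8% and 14.1% with untriggered split Csy4. *HSPA5* averaged 1049 CPM with full-length, 1186 CPM with split Csy4 and 950 CPM in untransfected cells.

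Zinc finger genes with a ZNF symbol, which mostly encode DNA-binding repressors, were often higher with full-length Csy4. Of 436 tested, 222 were higher and 16 lower, at a median of 0.25, where 13.1% of all tested genes were higher. With library totals alone 270 were higher and 12 lower, so the direction did not depend on scaling. Their counts made up 1.73 to 1.76% of the full-length libraries and 1.442 to 1.462% of the split libraries. On chromosome 19, which holds the large ZNF clusters, 126 of 206 were higher and 2 lower, while on the other chromosomes 96 of 230 were higher and 14 lower. Other genes on chromosome 19 were higher in 151 of 954 cases. Within 10 to 100 CPM, 58.9% of ZNF genes and 15.7% of other genes were higher.

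*ZNF79*, on chromosome 9, stood at 44.9, 44.6 and 44.3 CPM with full-length and 16.2, 17.8 and 18.6 CPM with split Csy4 (1.35 ± 0.09). *ZNF256*, on chromosome 19, averaged 19.7 ± 1.1 against 8.22 ± 0.73 CPM (1.26 ± 0.12). *ZNF79* was intermediate with triggered split Csy4, at 25.4 CPM, and lowest in untransfected cells, at 10.9 CPM. Many ZNF genes resemble each other, and how the counting treated reads that fit several of them is not given in the sources used here. Against untransfected cells the ZNF median was 0.32 with full-length and 0.07 with untriggered split Csy4.

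Replication-dependent histone genes rose in 12 of the 19 that had enough counts, out of 42 listed, and none fell. Their median was 1.45. Their mRNAs end in a stem-loop without a poly(A) tail, so libraries made from poly(A) RNA capture few of them. The summed level of the list was 80.7 to 82.6 CPM with full-length and 52.4 to 57.9 CPM with split Csy4. *H3C6* stood at 6.6, 6.99 and 5.35 CPM against 1.54, 2.57 and 1.57 CPM (1.74 ± 0.24), and *H4C15* at 19.7, 17 and 17.4 CPM against 11.5, 12.3 and 11.9 CPM (0.60 ± 0.11). The libraries did not overlap in either gene. Near-identical histone copies can share reads, and *H1-2*, a linker histone, was lower with split Csy4 (3.9 CPM) than in untransfected cells (5.72 CPM), so its rise of 1.05 ± 0.18 was measured from a lowered level.

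Host genes of small nucleolar RNAs, many of them noncoding transcripts held down by nonsense-mediated decay, also went up. Of 20 tested 12 rose and none fell, at a median of 0.18. *SNHG17* stood at 37.2, 34 and 38.6 CPM against 25, 21.5 and 20 CPM (0.73 ± 0.086), and *SNHG15* rose by 0.67 ± 0.07. *GAS5*, a host named for growth arrest, rose by 0.13 ± 0.038. Of 51 decay genes 7 were higher (13.7%) and 8 lower (15.7%), close to the 13.1% and 14.9% of all tested genes. *AGO1*, an Argonaute of the small RNA pathway, averaged 104 ± 1.8 CPM with full-length and 144 ± 7.3 CPM with split Csy4 (-0.47 ± 0.047), and *XPO5*, which exports microRNA precursors, fell by 0.37 ± 0.042. *XRN1*, the cytoplasmic exonuclease, fell by 0.33 ± 0.053, and *DCP1B*, a decapping factor, rose by 0.57 ± 0.079. With library totals alone 19 decay genes were higher and 6 lower, so the balance of that list depends on the scaling.

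Falls of at least 2-fold were few, 54 genes in all. *MAP4*, which stabilises microtubules, stood at 143, 138 and 142 CPM with full-length and 317, 336 and 319 CPM with split Csy4 (-1.20 ± 0.039, adjusted p = 6e-41). Untransfected cells averaged 315 CPM and triggered split Csy4 cells 314 CPM, so the full-length libraries alone were low. *CDV3*, a gene first linked to carnitine deficiency, showed the same order: 164, 172 and 171 CPM against 346, 356 and 342 CPM (-1.04 ± 0.035), with 347 CPM in untransfected and 344 CPM in triggered cells. *MAP4* lies on chromosome 3 from 47850695 to 48088848 and *CDV3* on the same chromosome from 133573686 to 133590274.

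*DMAC2*, an assembly factor of the respiratory chain, stood at 19.5, 16.9 and 20.9 CPM against 49.9, 52.1 and 46 CPM (-1.36 ± 0.077). *CHP1*, a calcium-binding partner of sodium-proton exchangers, stood at 34.6, 42 and 36 CPM against 69.6, 84.3 and 85.6 CPM (-1.09 ± 0.066). Both were lowest with full-length Csy4 and somewhat higher with split Csy4 than in untransfected cells, at 39.4 and 69.1 CPM. *RIN3*, a Rab exchange factor, *ZBTB16*, a zinc finger repressor, *SLC45A4*, a transporter, and *IMPA2*, an inositol monophosphatase, had log2 fold changes from -1.21 ± 0.16 to -1.08 ± 0.17 at levels under 20 CPM.

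For other genes the lower value with full-length Csy4 stood beside a raised level with split Csy4. *FRMD3*, a cytoskeletal linker, stood at 3.07, 1.08 and 1.89 CPM with full-length and 6.57, 5.73 and 6.72 CPM with split Csy4 (-1.67 ± 0.23), while untransfected cells averaged 2.57 CPM. *UNC5CL*, a death-domain signalling protein, averaged 3.19 ± 0.37 against 6.56 ± 0.98 CPM (-1.04 ± 0.2), with untransfected cells at 2.24 CPM. In both genes the split group was called against untransfected cells and the full-length group was not.

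Cholesterol synthesis genes fell together. Of 24 tested, 19 fell and 1 rose, at a median of -0.37, and 18 fell with library totals alone. The brake *INSIG1* stood at 66.1, 74.9 and 66 CPM with full-length and 140, 139 and 131 CPM with split Csy4 (-0.99 ± 0.05). *HMGCS1*, an early enzyme of the pathway, stood at 109, 113 and 104 CPM against 191, 176 and 184 CPM (-0.76 ± 0.045). All full-length libraries were lower in both genes. *SQLE*, squalene epoxidase, fell by 0.63 ± 0.042, *MSMO1*, a sterol demethylation enzyme, by 0.48 ± 0.05 and *SREBF2*, the gene of SREBP2, by 0.45 ± 0.049. *TM7SF2*, a sterol reductase, rose by 0.52 ± 0.14, and *HSD17B7*, a ketosteroid reductase of the same route, was at 0.04 (95% interval -0.15 to 0.22).

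Part of this difference lay on the split side. Against untransfected cells the list had a median of -0.26 with full-length Csy4, with 18 lower and 1 higher. With untriggered split Csy4 the median was 0.07, with 9 higher and 4 lower. Over all tested genes, 24% were lower and 22.9% higher with full-length Csy4. With untriggered split Csy4, 14.8% were higher and 14.1% lower. *HMGCS1* averaged 146 CPM in untransfected cells, between the 109 CPM of full-length and the 184 CPM of split Csy4. *INSIG1*, by contrast, averaged 162 CPM in untransfected cells, 137 CPM with split and 69 CPM with full-length Csy4. *SQLE* averaged 171 CPM in untransfected cells, 175 CPM with split and 113 CPM with full-length Csy4.

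SREBPs act beside NF-Y, which binds the box CCAAT. Within 250 bases upstream of a start, CCAAT on either strand was present in 16 of 18 cholesterol genes with a promoter entry, and in 40.6% of tested genes. Of the 16, 12 fell and 1 rose. Of the 2 without the box, 1 fell, and of the whole list of 24 tested genes 79.2% fell. A link between the box and the falls was not tested. The sterol element TCACNCCAC was found in 1 of the 18, *SREBF2*, and in 1.09% of tested genes. Stretches for 3 genes that fell and for *SREBF2* are shown with the matches in capitals (ATTGG is CCAAT read on the other strand).
HMGCS1, chr5:43313488-43313587, minus strand: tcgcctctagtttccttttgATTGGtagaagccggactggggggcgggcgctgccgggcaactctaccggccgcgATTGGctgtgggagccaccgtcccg
INSIG1, chr7:155297688-155297732, plus strand: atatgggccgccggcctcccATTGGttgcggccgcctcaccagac
MSMO1, chr4:165327464-165327659, plus strand: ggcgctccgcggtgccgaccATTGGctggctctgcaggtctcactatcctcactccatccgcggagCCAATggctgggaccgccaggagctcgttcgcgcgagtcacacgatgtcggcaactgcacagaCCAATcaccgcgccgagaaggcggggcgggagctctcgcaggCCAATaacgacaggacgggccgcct
SREBF2, chr22:41832952-41833000, plus strand: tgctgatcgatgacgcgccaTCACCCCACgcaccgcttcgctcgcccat
*MSMO1* holds 4 CCAAT boxes and *INSIG1* 1 in these windows, while the log2 fold changes were -0.48 and -0.99. *HMGCS1* had 2 promoter windows, and 1 of them held the box.

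Fatty acid synthesis fell as well, with 9 of 11 lower and none higher at a median of -0.29. *SCD*, the desaturase that makes oleic acid, stood at 751, 755 and 759 CPM against 1085, 1071 and 1065 CPM (-0.51 ± 0.028). *ACACA*, the carboxylase that commits carbon to fatty acids, fell by 0.44 ± 0.044 and *FASN*, the synthase, by 0.16 ± 0.054. The spread within each group was small beside these differences, except for *FASN*, whose adjusted p was 0.0293.

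Abundant genes of energy metabolism and protein synthesis were lower by small amounts in most cases. Of 80 cytosolic ribosomal protein genes 69 fell and none rose, at a median of -0.20, and the counts of the family were 5.41 to 5.69% of the full-length libraries and 5.96 to 6.23% of the split libraries. *RPL3* averaged 1469 ± 34 CPM with full-length and 2050 ± 48 CPM with split Csy4 (-0.48 ± 0.028). Translation factors and other genes listed with the same 5-prime TOP class fell in 15 of 17 cases, with *EEF1A1*, the carrier of aminoacyl-tRNA, at -0.32 ± 0.025. Nuclear-encoded genes of the respiratory chain and ATP synthase fell in 50 of 80 cases, with none higher, at a median of -0.17. *ATP5PB*, a stalk subunit of ATP synthase, fell by 0.41 ± 0.036.

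These counts moved with scaling, though not their direction: with library totals alone 58 ribosomal protein, 12 translation and 31 respiratory chain genes were lower, and 2 of the last were higher. Against a 1.2-fold change only 4, 2 and 1 passed. Many ribosomal protein genes have processed pseudogenes that can share reads. Untriggered split Csy4 cells were close to untransfected cells in these lists, with medians of -0.06 for ribosomal proteins and -0.05 for the respiratory chain, against -0.25 and -0.23 with full-length Csy4.

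Glycolysis genes fell in 12 of 20 cases and none rose, at a median of -0.23. *HK2*, the hexokinase that starts the pathway, fell by 0.33 ± 0.056, and *GAPDH*, often used as a reference gene, stood at 1693, 1635 and 1758 CPM against 2093, 2095 and 2070 CPM (-0.30 ± 0.028). *ACTB*, another reference gene, was lower by 0.11 ± 0.029, a difference that was not called with library totals alone. None of the 12 glycolysis falls passed against a 1.2-fold change. Targets of NRF2, the regulator of antioxidant genes, fell in 8 of 17 cases (47.1%) and rose in 1 (5.88%). Of all tested genes 14.9% fell and 13.1% rose. The ferritin chain *FTL* was at -0.26 and thioredoxin, *TXN*, at -0.22.

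Structural genes of the actin cytoskeleton were lower with full-length than with split Csy4, while 3 contractile genes rose. In the actin list 13 of 22 fell, among them *VCL*, vinculin, by 0.41 ± 0.038 and *CALD1*, caldesmon, by 0.42 ± 0.045. The risers were *ACTA2*, *TAGLN* and *CNN1*, smooth muscle genes at low levels. The list summed to 6126 to 6341 CPM with full-length, 6814 to 7075 CPM with split Csy4 and 6034 to 6181 CPM in untransfected cells. Relative to untransfected cells, 6 of the 22 were higher and 7 lower with full-length Csy4. With untriggered split Csy4 these counts were 10 higher and 1 lower. Of all tested genes 22.9% were higher and 24% lower with full-length Csy4, and 14.8% and 14.1% with untriggered split Csy4. The full-length counts of this list were thus near those shares. *ACTA2* stood at 14.2, 19.2 and 14.8 CPM against 5.59, 5.21 and 5.34 CPM (1.58 ± 0.14), with the overlap with *FAS* named above. *ANKRD1*, a stretch-responsive target of YAP, rose by 0.97 ± 0.095, while *CCN2*, another YAP target, was lower with full-length (10.2 CPM) than with split Csy4 (14.9 CPM) and at 7.17 CPM in untransfected cells. Of 16 YAP targets 3 rose (18.8%) and 5 fell (31.2%), where 13.1% of all tested genes rose and 14.9% fell.

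Cell cycle genes changed by small amounts. Among 38 DNA replication genes 4 rose (10.5%) and 11 fell (28.9%), with ribonucleotide reductase *RRM1* at -0.33 ± 0.034. Among 30 mitotic genes 7 rose (23.3%) and 2 fell (6.67%), with the spindle motor *KIF11* at 0.22 ± 0.038. Of all tested genes 13.1% rose and 14.9% fell. With library totals alone the counts of the lists became 10 and 6, and 18 and 0. In that fit 3476 of all 17966 genes were higher and 1652 lower. The balance of both lists is thus not independent of scaling. The medians, -0.03 and 0.07, lay close to that of all genes.

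Some genes that differed strongly from untransfected cells were not called between the forms of Csy4. *CMYA5*, a muscle scaffold protein, averaged 15.9 ± 0.27 CPM with full-length and 13.6 ± 0.79 CPM with split Csy4, where untransfected cells had 3.58 CPM. Its log2 fold change between the forms was 0.22 with a 95% interval of -0.02 to 0.46, although the libraries did not overlap. *ABHD14B*, a serine hydrolase, averaged 18 ± 1.2 and 18.7 ± 0.95 CPM against 47.5 CPM in untransfected cells, and the interval of the difference between the forms was -0.23 to 0.13. *HFM1*, a meiotic helicase, and *LGALS3BP*, a secreted glycoprotein, had intervals of -0.45 to 0.41 and -0.30 to 0.25. These intervals bound the difference and do not show that it is 0.

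*AMH*, anti-Müllerian hormone, and *DRP2*, a dystrophin relative, rose with split Csy4 against untransfected cells and were higher again with full-length Csy4. *AMH* stood at 32.2, 29.8 and 27.7 CPM with full-length and 17.6, 20 and 17.3 CPM with split Csy4, a log2 fold change of 0.71 ± 0.1, and untransfected cells averaged 5.59 CPM. *DRP2* was at 0.65 ± 0.14. *TENM1*, a teneurin, showed the reverse order, at 95.1 ± 7.1, 167 ± 13 and 266 CPM in full-length, split and untransfected cells (-0.82 ± 0.052 between the forms). *FKBP1A*, the binding protein of rapamycin, was at -0.04 (95% interval -0.11 to 0.03), and *MTOR*, the kinase that rapamycin inhibits, at 0.06 (-0.02 to 0.15).

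The comparisons of each form with untransfected cells had their own backgrounds. Full-length Csy4 against untransfected DMSO cells called 46.9% of genes, untriggered split Csy4 called 28.9% and triggered split Csy4 called 31.6%. The contrast between full-length and untriggered split Csy4, at 28%, thus called a share close to that of untriggered split Csy4 against untransfected cells. These shares rest on the same DMSO or split libraries and were not tested against each other.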

How the data were processed

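Poly(A) RNA from HEK-293T cells was sequenced, per the labels' protocols. The authors deposited raw counts per gene; the submitters' processing notes list hg38, HISAT2 (2.2.1), HTSeq (0.6.1), cutadapt (1.9.1) and DESeq2 (1.44.0), and strand and multi-mapping settings are not given in the sources used here. The table held 59251 gene symbols, 19852 at 0 throughout; 58222 matched the RefSeq gene table (GRCh38).

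Counts were fitted in R 4.3.3 with edgeR 4.0.16: genes filtered with filterByExpr (17966 kept, 99.84% of counts), TMM factors, and 1 robust quasi-likelihood fit of all 18 libraries with 6 group means (12 residual degrees of freedom, biological coefficient of variation 4.15%). Benjamini-Hochberg adjustment ran over the 17966 genes, and a gene is called below 0.05. The approximate SE is |log2 fold change| over the root of F. CPM values use TMM factors. Replicates differed beyond counting noise (chi-square per degree of freedom 2.1 to 2.74), so none was a copy.

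The members, the 32 written gene lists (729 symbols, 4 matched through an older symbol, 1 unmatched), the 7 lists by symbol pattern and the rule for named genes were chosen with earlier results of these data known. The rule takes the 10 strongest rises and the 10 strongest falls among calls without overlap of libraries whose higher group averaged 5 CPM or more, passing over unnamed loci and copies or overlapping genes that share reads, plus at most 4 calls per list (smallest adjusted p first), and 16 genes whatever their values. Other genes were chosen after their values were seen. Alternatives were median-of-ratios factors, library totals alone, no filter, DESeq2 1.42.0, glmTreat against a 1.2-fold change, a minimum of 1 CPM in 3 libraries, a fit of the 6 libraries without and with a replicate block, a length and GC correction, and leaving out each library.

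On simulated data for this comparison with 17966 genes, 42% of 1.2-fold, 68% of 1.5-fold, 90% of 2-fold and 100% of 4-fold changes were recovered (50 genes at each size); of 17766 genes left unchanged, 10 were called. The changed genes were drawn from those averaging at least 1 CPM and were a far smaller share than the 28% called in the data. These rates therefore need not hold for the comparison itself. Promoter sequences are RefSeq, GRCh38.p14. Values of some list members are not reported here, though the list counts include them.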

Additional observations from a re-analysis of the deposited data

How the results depend on the processing

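Genes called in the main fit and again under an alternative kept their direction. The number of calls depended on the threshold and, for its balance, on the scaling. No called gene was called in the opposite direction under any of the 15 alternatives, but a gene that lost its call could not count as opposite. Of the 5024 calls, 3997 were kept with library totals alone, 4571 with DESeq2 and 4863 with median-of-ratios factors. The 5024 calls became 4993 with median-of-ratios factors, 5128 with library totals alone, 4525 with no filter, 5002 with 1 CPM in 3 libraries, 4604 with DESeq2 and 5132 in a fit of the 6 libraries alone. Correcting for length and GC gave 5223 calls, against 4939 when those genes were left uncorrected. Against a 1.2-fold change 863 remained to be called, 518 higher and 345 lower. With library totals alone 3476 were higher and 1652 lower. Leaving out 1 library gave 4133 to 4400 calls, with 1894 to 2014 higher and 2239 to 2386 lower.

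Adding the replicate block to the fit of the 6 libraries gave 5093 calls. Deviations of libraries with the same number correlated at -0.013, -0.085 and 0.059 over 10136 genes, so no effect shared by number was seen. Deviations within groups of 3 libraries cannot show whether libraries with the same number were handled together.

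Of 169 named genes 163 were called, and 91 of these were called under every alternative. Of the named genes 72 lost their call against a 1.2-fold change, 6 with library totals alone and 2 with DESeq2. With library totals alone 1 named gene that was not called in the main fit gained a call. Only genes with log2 fold changes near 0 that were not called changed sign. With library totals alone *FKBP1A* was at 0.0309, *ABHD14B* at 0.0154, *HFM1* at 0.0483 and *LGALS3BP* at 0.0455, and with the length and GC correction *FKBP1A* was at 0.008242. Leaving out 1 library gave -0.000392 to 0.107 for *MTOR*, -0.0896 to 0.00241 for *ABHD14B*, -0.269 to 0.213 for *HFM1* and -0.108 to 0.0345 for *LGALS3BP*.

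Depth limits the low genes: 2.76% of 2208 genes under 1 CPM were called, against 56% of 2624 genes at 100 CPM or more.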

Other observations

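Further gene groups were read in the same contrast, where 13.1% of all tested genes were higher and 14.9% lower. Among 35 proteasome subunits 11 fell and 2 rose. *PSMA6*, of the core ring, was at -0.63 ± 0.046, from 153 to 99 CPM, although its exons overlap another annotated gene. Mitochondrial ribosomal proteins fell in 19 of 77 cases and rose in 4, against 4 lower and 8 higher with library totals alone. Aminoacyl-tRNA synthetases fell in 6 of 20 cases and rose in 2: *EPRS1*, which charges glutamate and proline, was at -0.37 and *CARS1*, for cysteine, at 0.56. Ribosome biogenesis factors rose in 5 and fell in 7 of 32 cases, with the methyltransferase *FBL* at -0.27 and *RRP12* at 0.34. Targets of the hypoxia factor HIF fell in 6 of 15 cases and rose in 1, with *NDRG1*, a stress-responsive gene, at -0.41 ± 0.054. Lysosome and autophagy genes fell in 10 and rose in 6 of 34 cases; progranulin, *GRN*, was at -0.30, and the transcription factor *TFEB*, which drives lysosome genes, was at -0.72.

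Of 34 interferon-stimulated genes 6 rose (17.6%) and 1 fell (2.94%), at a median of 0.08. *IFIT3* was at 0.42 and *IRF9*, a subunit of the interferon-activated factor, at 0.48. The call of *IFIT3* was lost without SplitCsy4_DMSO replicate 2 (edgeR adjusted p = 0.0590) or without wtCsy4 replicate 2 (0.0620). That of *IRF9* was lost without SplitCsy4_DMSO replicate 2 (edgeR adjusted p = 0.0586) or without wtCsy4 replicate 3 (0.0920). *EIF2AK2*, the kinase PKR that senses double-stranded RNA, was at -0.19. Of 13 NF-kB targets 1 rose and 1 fell, and the call of the latter, *TNFAIP3*, was lost under 8 of 15 alternatives. SR splicing factors and their CLK kinases rose in 4 and fell in 3 of 20 cases, and in 15 and 1 with library totals alone. Among long intergenic noncoding RNAs 24 of 223 were higher (10.8%) and 6 lower (2.69%), and among antisense RNA genes 37 of 504 were higher (7.34%) and 8 lower (1.59%). Of 1036 pseudogenes 24 were higher (2.32%) and 78 lower (7.53%), and of 426 transcribed pseudogenes 55 were higher (12.9%) and 6 lower (1.41%). None of these shares of higher or lower genes in noncoding RNA and pseudogenes was above that of all tested genes. Reads of antisense genes and pseudogenes cannot be told apart with certainty from those of their partners.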
